A study of Mus musculus with 9 samples.

Results

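A set of 9 surface protein genes was followed through a mouse fibroblast line and its stably transfected derivatives. Ly6a, Ly6c1, Ly6e, Ly6d and Slurp1 were taken from the Ly6 family. The others, Thy1, Cd59a, Bst1 and Cd109, encode proteins held on the outer face of the membrane by a glycosylphosphatidylinositol (GPI) anchor. The set was chosen by the expression values of Bst1, Thy1 and Slurp1, which differed strongly between the lines, so all values of those 3 genes are given as a description, with no test. Of the 9 genes, 7 had at least 1 probeset annotated to that single symbol, which made 11 of the 45037 probesets tested. No probeset carried the symbol Ly6a in the annotation used here, and the probeset of Ly6c1 also carried Ly6c2, so no value is given for either gene.

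RNA came from Balb/c-3T3 cells, an immortalised mouse fibroblast line, in 3 forms with 3 arrays each. The control cells were unmodified, the v-Src cells were stably transfected with pMvSrc, which carries the viral Src tyrosine kinase, and the STAT3-C cells were stably transfected with pRc/CMV-STAT3C, a constitutively active form of the transcription factor STAT3. Each array held RNA pooled from several dishes of 1 passage, and each form was 1 stable line, so the p-values below measure the spread between passages of that line and not between independently derived lines. The question behind the design was which genes change where STAT3 is persistently active, and the v-Src and STAT3-C comparisons used the same 3 control arrays.

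Values are log2 expression from robust multichip averaging (RMA), a summary of the brightness of a probeset's probes, on whole-genome Affymetrix mouse arrays. Array medians ranged from 6.27 to 6.39 and lower quartiles from 5.07 to 5.16. A gene was called higher or lower at an adjusted p under 0.05 in limma with a fold of at least 1.5. Arrays of the same line correlated at 0.99 to 0.995 over all probesets, and arrays of a transfected line correlated with the control arrays at 0.943 to 0.948. Of 4 probesets of mouse Stat3, 1460700_at was called higher with both v-Src (1.30 ± 0.14, SE; limma adjusted p = 0.000504) and STAT3-C (0.72 ± 0.15; limma adjusted p = 0.00827). A further one, 1426587_a_at, was higher with v-Src (1.53; limma adjusted p = 0.000537) but not with STAT3-C (0.24; limma adjusted p = 0.291), and the other Stat3 probesets and those of Src were called in neither line. Whether these probes detect the transfected genes was not tested. Of 13 fibroblast markers, 6 were called lower and 2 higher in v-Src cells, and 7 lower and 1 higher in STAT3-C cells, together 61.5% in either line beside 19.9% and 22.2% of all genes, and on the log2 scale their summed level was 16.06 to 16.14 in control, 15.69 to 16.03 in v-Src and 15.59 to 15.64 in STAT3-C cells. Leukocyte markers summed to between 9.62 and 10.08 on any array, and Cd68, a macrophage glycoprotein, was the 1 of 11 called, higher with STAT3-C. Of 11 epithelial markers Krt10 alone was called against control, higher in both lines, and limma called 0 of 8 endothelial markers in either line, of which 0 with v-Src and 1 with STAT3-C had an unadjusted p under 0.05. In such bulk RNA, fewer cells of a type and less RNA per cell cannot be told apart.

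Ly6 proteins share a compact fold of loops pinned by disulphide bonds, also called the three-finger or Ly6/uPAR domain, with snake toxins and the urokinase receptor. Most are tethered by a GPI lipid, which is built in the endoplasmic reticulum and exchanged for the C-terminal end of the protein, and a few, Slurp1 among them, lack the anchor and are secreted. Many Ly6 genes lie next to each other on one chromosome, and Ly6a (Sca-1) and Thy1 are widely used to sort stem cells, lymphocytes and stromal cells. GPI-anchored proteins have no cytoplasmic part and gather in cholesterol-rich patches of membrane, where Src family kinases also lie.

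Bst1 (CD157) is an ectoenzyme of the NAD glycohydrolase and ADP-ribosyl cyclase family, first described on bone marrow stromal cells. At probeset 1449453_at its level was 4.46, 4.38 and 3.84 on the control arrays, 11.45, 11.05 and 11.51 on the v-Src arrays and 10.00, 10.17 and 9.54 on the STAT3-C arrays. The 3 lines did not overlap, and the control values lay below the lower quartile of every array. The mean was 7.11 ± 0.19 (SE) higher on the log2 scale with v-Src than in control cells, a ratio of 139, and 5.68 ± 0.21 higher with STAT3-C, a ratio of 51.3. The other Bst1 probeset, 1449454_at, read 3.94, 3.54 and 3.41 in control, 11.14, 10.60 and 11.26 in v-Src and 9.58, 9.96 and 8.98 in STAT3-C cells. Its differences from control were 7.37 ± 0.20 with v-Src and 5.88 ± 0.24 with STAT3-C. Between the transfected lines, Bst1 stood 1.43 ± 0.19 and 1.49 ± 0.26 higher in v-Src cells at the respective probesets, so the order control, STAT3-C, v-Src was the same at both.

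Thy1 (CD90) is a GPI-anchored member of the immunoglobulin superfamily found on fibroblasts, neurons and mouse T cells, where it takes part in adhesion through integrins and syndecan-4. At its probeset, 1423135_at, the control arrays read 10.92, 10.40 and 11.25, the v-Src arrays 5.68, 5.83 and 5.55, and the STAT3-C arrays 5.79, 5.55 and 5.68. Every control array was far above every array of the transfected lines, which overlapped each other and lay below the median of their arrays. The level with v-Src was lower by 36.1-fold (log2 difference -5.17 ± 0.21, SE) and with STAT3-C by 36.3-fold (-5.18 ± 0.20). Their difference from each other was 0.01 ± 0.10, less than the spread between passages.

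Slurp1 encodes a secreted Ly6 protein of skin that binds nicotinic acetylcholine receptors and is mutated in the palmoplantar keratoderma mal de Meleda. The control arrays read 7.28, 7.10 and 7.03 at 1420562_at, the v-Src arrays 8.19, 8.04 and 8.61, and the STAT3-C arrays 12.75, 13.03 and 12.94. No lines overlapped, and the order was control, v-Src, STAT3-C, with STAT3-C set far apart. The level was 54.6-fold higher in STAT3-C than in control cells (log2 difference 5.77 ± 0.11, SE), 2.21-fold higher in v-Src than in control cells (1.15 ± 0.15) and 24.7-fold lower in v-Src cells than in STAT3-C cells (-4.62 ± 0.15). Slurp1 and Bst1 thus had opposite orders in the transfected lines.

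**Figure D1:**
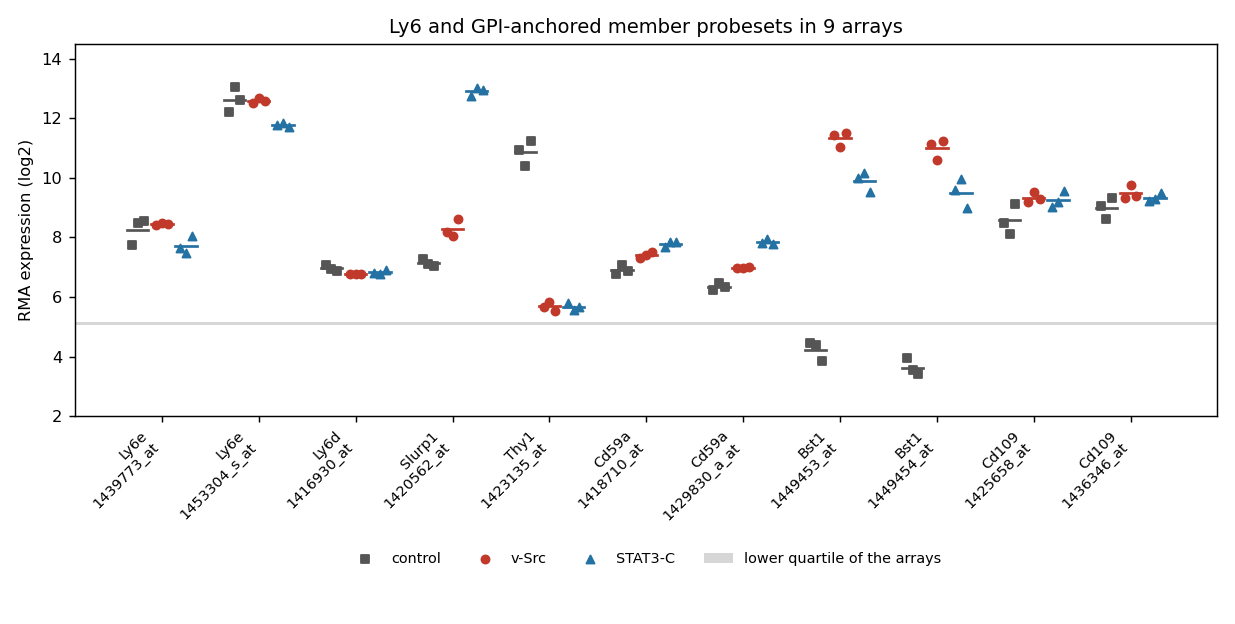
RMA expression on the log2 scale (vertical axis) of the 11 member probesets (horizontal axis) on each of 9 arrays, with 3 arrays per line as points and the mean of a line as a bar; the grey band spans the lower quartiles of the arrays. Bst1 lies below the band in control cells and above 8.9 in both transfected lines, Thy1 lies between 10.40 and 11.25 in control cells and below 5.9 in the others, and Slurp1 lies above 12.7 in STAT3-C cells only.

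The other 4 measured members did not choose the set and could be tested. Of their 7 probesets, 1 was called higher in v-Src cells than in control cells, where 16.8% of all probesets were called, 8.75% higher and 8.1% lower. In STAT3-C cells 2 were called higher than control and 1 lower, beside 18.3% of all probesets, 9.68% higher and 8.58% lower. The direct comparison of the transfected lines called 2 higher in v-Src cells and 1 lower, beside 10.3% of all probesets, 4.99% higher and 5.33% lower. Counting all 11 probesets, Bst1, Thy1 and Slurp1 included, 5, 7 and 6 were called, a share that the choice of those genes sets in part and from which nothing is read. The 3 arrays of one line did not overlap those of the other at 4, 3 and 5 of the 7 probesets that did not choose the set, beside 44%, 43.4% and 37.7% of all probesets. For counts of genes further on, the shares of all genes called in the direct comparison were 11.7%, with 4.84% higher and 6.83% lower in v-Src cells, and those against control were 9.54% and 11.9% higher and 10.4% and 10.3% lower for v-Src and STAT3-C respectively.

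Ly6e is a broadly expressed, interferon-inducible Ly6 protein that can act as the receptor of the mouse syncytin-A and restricts the entry of several viruses. Its brighter probeset, 1453304_s_at, read 12.23, 13.05 and 12.62 in control cells, 12.50, 12.67 and 12.58 in v-Src cells and 11.76, 11.85 and 11.71 in STAT3-C cells. The STAT3-C arrays lay below all others, and the v-Src arrays lay within the range of the control arrays. The level was lower in STAT3-C than in control cells by a log2 difference of -0.86 ± 0.19 (SE; limma adjusted p = 0.00981, n = 3 arrays per line) and higher in v-Src cells than in STAT3-C cells by 0.81 ± 0.08 (limma adjusted p = 0.00105). Against control, the v-Src difference was -0.05 ± 0.19 (limma adjusted p = 0.881). At 1439773_at the values were 7.75, 8.48 and 8.56 in control, 8.42, 8.50 and 8.44 in v-Src and 7.63, 7.48 and 8.04 in STAT3-C cells. Here control array 1 fell among the STAT3-C arrays, and the difference of STAT3-C from control was -0.55 ± 0.23 (limma adjusted p = 0.117). It was -0.80 without that array (limma adjusted p = 0.0175). The direct difference was 0.73 ± 0.14 (limma adjusted p = 0.0117), and 0.69 without STAT3-C array 1 (limma adjusted p = 0.0571).

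The interferon-stimulated genes, a group to which Ly6e belongs by its regulation, were measured beside it. Of 16 measured genes of that list, 15 were called lower in v-Src cells and 15 in STAT3-C cells, and none was higher at an unadjusted p under 0.05 in limma, against 10.4% and 10.3% of all genes called lower. Their median log2 difference was -3.11 with v-Src and -2.78 with STAT3-C, where the median of all genes was 0.02 and 0.04. Ifit1, whose protein binds foreign RNA, read 11.28, 12.67 and 12.12 in control, between 6.61 and 8.02 in v-Src and 7.59, 6.50 and 6.64 in STAT3-C cells. It was lower with v-Src by -4.48 ± 0.47 (SE; limma adjusted p = 0.000516) and with STAT3-C by -5.11 ± 0.38 (limma adjusted p = 4.9e-05). Ifit3, Irf7, the transcription factor of the type I interferon response, Usp18, which curbs receptor signalling, and Oasl2 also fell in both lines, by between -3.79 and -4.51. Among the control arrays, array 1 had the lowest and array 2 the highest level of Ly6e at 1453304_s_at, of Ifit1 and of Bst2. At 1439773_at, the other Ly6e probeset, array 3 was highest, at 8.56 beside 8.48 on array 2. The order of the control arrays at the other genes of that list is not given here. Whether Ly6e follows the interferon-stimulated genes over the control arrays was not tested. Ly6e in v-Src cells stayed within its control range while these genes fell.

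Ly6d marks B cell progenitors and stratified epithelia. Its values were 7.08, 6.95 and 6.88 in control, 6.76, 6.76 and 6.77 in v-Src and 6.81, 6.78 and 6.92 in STAT3-C cells. The v-Src arrays lay just below the control arrays and the STAT3-C arrays overlapped them. Neither difference from control was called, at -0.20 ± 0.08 (SE; limma adjusted p = 0.0994) and -0.13 ± 0.10 (limma adjusted p = 0.363), nor was the difference between the transfected lines, at -0.07 ± 0.07 (limma adjusted p = 0.536).

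Cd59a encodes the Ly6-fold inhibitor of the complement membrane attack complex, which keeps C9 from inserting into the membrane. Probeset 1429830_a_at read 6.23, 6.48 and 6.33 in control, 6.98, 6.97 and 7.01 in v-Src and 7.82, 7.96 and 7.77 in STAT3-C cells. The lines did not overlap, with STAT3-C highest, v-Src between and control lowest. The STAT3-C level was higher than control by 1.51 ± 0.10 (SE; limma adjusted p = 3.4e-05) and the v-Src level by 0.64 ± 0.09 (limma adjusted p = 0.00155). The v-Src call sat near the fold threshold: the difference was 0.57 with the arrays quantile-normalized again or centred on their medians, and 0.58 without control array 1, where it was no longer called. Between the transfected lines v-Src was lower by -0.86 ± 0.08 (limma adjusted p = 0.000807). Probeset 1418710_at read 6.77, 7.08 and 6.87, then 7.31, 7.40 and 7.50, then 7.67, 7.84 and 7.85 in the same order of lines. It had the same order without overlap and smaller steps: 0.88 ± 0.11 for STAT3-C (limma adjusted p = 0.000655, called higher), and 0.50 ± 0.10 for v-Src (limma adjusted p = 0.0104), which was under the fold threshold. The direct difference there was -0.38 ± 0.09 (limma adjusted p = 0.0244), also under the fold threshold.

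Of the members, the RefSeq promoter table held Cd59a and Ly6c1, and Ly6c1 has no expression value here. The bases from 250 to 51 before the start given for Cd59a are therefore shown. They end before the annotated start of any of its transcripts. They are RefSeq sequence of the GRCm38.p6 build, chr2:104095551-104095750 on the plus strand, 5′ to 3′, and the capitals mark a match to the interferon response element, searched as GAAA, any 2 bases and GAAA.
Cd59a: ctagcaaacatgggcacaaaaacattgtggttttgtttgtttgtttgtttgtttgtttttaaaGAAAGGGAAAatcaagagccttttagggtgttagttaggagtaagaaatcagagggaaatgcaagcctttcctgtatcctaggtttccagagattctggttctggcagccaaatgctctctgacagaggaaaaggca
The match begins at base -187 relative to that start. On either strand of windows from 250 bases before to 50 bases after a start, the interferon element was found in 1131 of 32851 promoters, or 3.44%. TTCNNNGAA, the core of STAT sites, was found in 2726 of them, or 8.3%, and not in the Cd59a window. The windows of Ly6c1 in the same table held neither motif. The study defined STAT3 sites more loosely, by an outer TT and AA with a short gap between them. That looser pattern was not searched here.

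Cd109 is a large GPI-anchored protein of the alpha-2-macroglobulin family, which traps proteases and binds TGF-beta as a co-receptor. At 1425658_at it read 8.49, 8.12 and 9.11 in control, 9.20, 9.53 and 9.29 in v-Src and 9.03, 9.18 and 9.57 in STAT3-C cells. Control array 3 was above STAT3-C array 1, and the control arrays spread more widely than those of either transfected line. The differences from control were 0.77 ± 0.24 with v-Src (SE; limma adjusted p = 0.0505) and 0.68 ± 0.25 with STAT3-C (limma adjusted p = 0.0733), neither of which was called. Without control array 3 they were 1.04 (limma adjusted p = 0.0068) and 0.95 (limma adjusted p = 0.0135). The transfected lines differed by 0.08 ± 0.15 (limma adjusted p = 0.749). At 1436346_at the control arrays read 9.06, 8.63 and 9.33 and overlapped both other lines, with differences of 0.48 ± 0.20 (limma adjusted p = 0.112) and 0.33 ± 0.17 (limma adjusted p = 0.198).

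The genes whose pattern over the 9 arrays was nearest to that of Bst1, Thy1 and Slurp1 were taken by the root mean square distance between probesets centred on their own means. Thy1 had the closest company. Acta2, the smooth muscle actin of myofibroblasts, lay at a distance of 0.18, followed by Brinp3 at 0.21, the imprinted gene Peg3 at 0.23, Rpl39l at 0.25 and the membrane proteolipid gene Gpm6b at 0.25. Acta2 averaged 12.85 in control, 7.77 in v-Src and 7.64 in STAT3-C cells. Nearest to Bst1 was Lbp, which encodes the lipopolysaccharide-binding acute phase protein, at 0.61, with means of 5.68, 11.52 and 10.56 in control, v-Src and STAT3-C cells. Mgp, a matrix inhibitor of calcification, followed at 0.81, Rnase2a at 0.83, the lipoprotein receptor Vldlr at 0.84 and the secreted protease inhibitor Slpi at 0.87. Nearest to Slurp1 was the fetal serum protein gene Afp at 0.53, with means of 4.25, 5.29 and 10.39, then Slain1 at 0.69, Serpinb1a at 0.75, Slc9b1 at 0.77 and the prostacyclin synthase Ptgis at 0.84. These distances describe 9 arrays that share 3 lines.

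**Figure D2:**
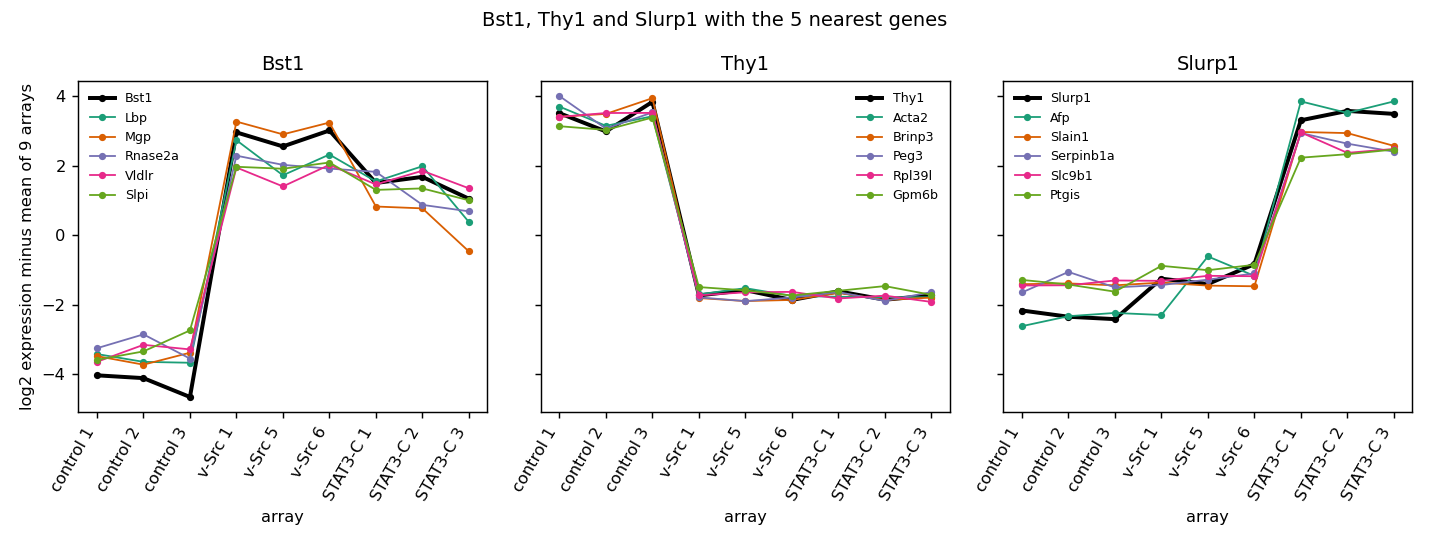
Log2 expression minus the mean of the 9 arrays (vertical axis) on each array (horizontal axis) for Bst1, Thy1 and Slurp1 (thick black) and the 5 nearest genes of each (thin). The genes near Thy1 share its single step down from control to both lines, those near Bst1 stand up in both transfected lines, and those near Slurp1 stand up in STAT3-C cells.

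Slurp1 lies in the Ly6 gene cluster, so its neighbours were read in the order of the RefSeq annotation of GRCm38.p6, over a stretch of 23 genes from Psca to Ly6f chosen after values were seen. Leaving out Slurp1, which chose the set, 3 of 14 measured genes were called higher with STAT3-C and 1, Ly6e, was lower, and 1 of 14 was higher with v-Src. Since the stretch was also chosen with values in view, these counts are a description and nothing is read from them beside the 11.9% of all genes called higher with STAT3-C. The 3 lay at the Psca end, on either side of Slurp1. Psca, the GPI-anchored prostate stem cell antigen, read 6.46, 6.32 and 6.20 in control, 6.94, 6.97 and 6.78 in v-Src and 7.61, 7.95 and 7.22 in STAT3-C cells. The lines did not overlap, and Psca was higher than control by 1.26 ± 0.18 (SE; limma adjusted p = 0.00115) with STAT3-C, whereas the 0.57 ± 0.10 of v-Src was under the fold threshold (limma adjusted p = 0.00469). Them6, which has no Ly6 domain and lies between Psca and Slurp1, was higher with STAT3-C by 0.64 ± 0.11 (limma adjusted p = 0.00266).

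Lynx1, a GPI-anchored modulator of nicotinic acetylcholine receptors, was the other neighbour called. It read 8.26, 8.39 and 8.29 in control, 9.26, 8.94 and 9.26 in v-Src and 10.26, 10.61 and 10.08 in STAT3-C cells at 1441952_x_at. The lines kept the order of Slurp1, control below v-Src below STAT3-C, with no overlap. At this probeset the level was 4.01-fold that of control with STAT3-C (log2 SE 0.14; limma adjusted p = 3.5e-05), and higher with v-Src by a log2 difference of 0.84 ± 0.11 (limma adjusted p = 0.0013). The other Lynx1 probeset, 1417283_at, is given below for the direct test only. The order of the lines and the differences from control given here thus rest on 1441952_x_at alone. Lypd2, between Slurp1 and Lynx1, differed by 0.47 ± 0.10 with STAT3-C (limma adjusted p = 0.00727), under the fold threshold, and by 0.08 ± 0.10 with v-Src (limma adjusted p = 0.612). Beyond Lynx1, Ly6d, Ly6g6g, Ly6k, Cyp11b1, Ly6m, Ly6i, Ly6g2 and Ly6f were called in neither line, with log2 differences from -0.20 to 0.23. Cyp11b2, the aldosterone synthase, differed by 0.58 ± 0.11 with STAT3-C (limma adjusted p = 0.00568), also under the fold threshold.

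**Figure D3:**
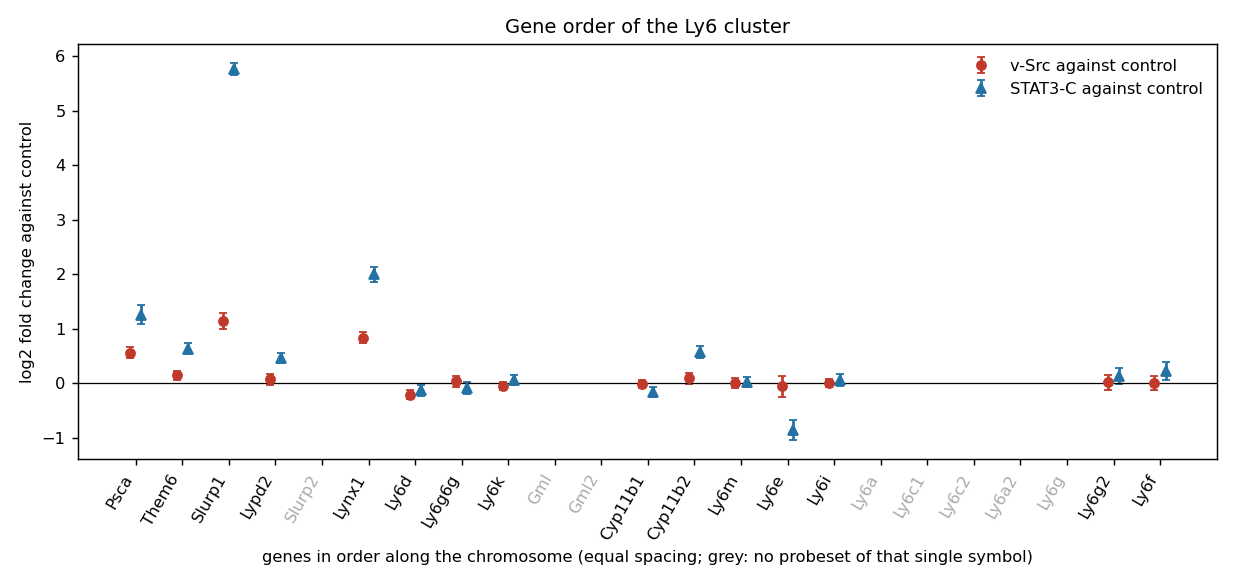
Log2 fold change against control (vertical axis, with standard errors as bars) of the genes of the Ly6 cluster in chromosomal order at equal spacing (horizontal axis), with v-Src as circles and STAT3-C as triangles; grey names had no probeset of that single symbol. With STAT3-C, Psca, Them6, Slurp1 and Lynx1 at the left end lie above 0.6 and Ly6e lies at -0.86.

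Across the rest of the Ly6/uPAR family, 26 of 39 listed genes were measured. In v-Src cells 3 were called higher and in STAT3-C cells 4, and none was called lower in either line, which is 11.5% and 15.4% of those measured against 19.9% and 22.2% of all genes. The median log2 difference of the family was 0.07 with v-Src and 0.18 with STAT3-C, beside 0.02 and 0.04 for all genes. At an unadjusted p under 0.05 in limma, 8 of the 26 were higher with v-Src and 9 with STAT3-C, and again none was lower in either line. The share of all genes at that unadjusted threshold was not taken, so no shift of the family is read from these counts.

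Plaur, the GPI-anchored urokinase receptor that focuses plasmin formation at the cell edge, read 8.07, 8.32 and 8.35 in control, 10.79, 10.70 and 10.77 in v-Src and 9.59, 9.33 and 9.94 in STAT3-C cells. The lines did not overlap, and v-Src was highest. It rose by 2.51 ± 0.10 (SE; limma adjusted p = 7.79e-06) with v-Src and by 1.38 ± 0.16 (limma adjusted p = 0.000452) with STAT3-C. Lypd6b, a little-studied relative that binds nicotinic receptors, read 4.65, 4.69 and 4.47 in control, 6.95, 7.08 and 7.01 in v-Src and 6.37, 5.96 and 6.17 in STAT3-C cells. It too had v-Src highest, with rises of 2.41 ± 0.09 (limma adjusted p = 6.22e-06) and 1.56 ± 0.12 (limma adjusted p = 6.67e-05), from control values below the lower quartile of the arrays. Gpihbp1, which carries lipoprotein lipase across capillary walls, was called in neither line, with means of 6.71 in control, 7.02 in v-Src and 7.25 in STAT3-C cells, and Lypd3, a urokinase receptor homologue of epithelia, differed by -0.02 ± 0.08 (limma adjusted p = 0.846) and 0.13 ± 0.09 (limma adjusted p = 0.343).

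Direct tests between the transfected lines called 2 of the 26 genes higher and 2 lower in v-Src cells. Plaur was the higher in v-Src cells by 1.13 ± 0.15 (SE; limma adjusted p = 0.00266) and Lypd6b by 0.85 ± 0.11 (limma adjusted p = 0.00278). Lynx1 was lower in v-Src cells by -1.16 ± 0.16 (limma adjusted p = 0.0029), though at its other probeset, 1417283_at, the -0.56 was not called (limma adjusted p = 0.166). Psca was lower in v-Src cells by -0.70 ± 0.18 (limma adjusted p = 0.0302), and this call was lost without v-Src array 1, 5 or 6 and without STAT3-C array 1 or 2, with differences from -0.52 to -0.73.

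Outside the Ly6 family, 67 of 70 listed genes of GPI-anchored proteins were measured. With v-Src 11 were called higher and 8 lower, together 28.4% against 19.9% of all genes, and the STAT3-C counts were 8 higher and 7 lower, together 22.4% against 22.2%. Their median differences were 0.01 and 0.02, beside 0.02 and 0.04 for all genes. Gpc1, Msln and Vnn1 were among the genes with the largest rises. Gpc1, glypican-1, a heparan sulphate proteoglycan that presents growth factors, read 6.52, 6.30 and 6.51 in control, 10.83, 11.24 and 11.07 in v-Src and 10.10, 10.14 and 10.44 in STAT3-C cells. No lines overlapped, and Gpc1 rose by 4.60 ± 0.12 (SE; limma adjusted p = 1.78e-06) with v-Src and by 3.78 ± 0.12 (limma adjusted p = 7.48e-07) with STAT3-C.

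Msln, mesothelin, a surface antigen of mesothelium and of several carcinomas, read 6.44, 6.22 and 6.19 in control, 10.23, 9.72 and 10.09 in v-Src and 10.79, 11.55 and 11.29 in STAT3-C cells. It rose by 3.73 ± 0.14 with v-Src (SE; limma adjusted p = 8.1e-06) and by 4.93 ± 0.18 with STAT3-C (limma adjusted p = 1.73e-06). Vnn1, a pantetheinase that yields cysteamine, read 5.41, 5.72 and 5.05 in control, 8.60, 7.63 and 7.80 in v-Src and 9.97, 9.35 and 9.79 in STAT3-C cells. It rose by 2.62 ± 0.27 (limma adjusted p = 0.000536) and 4.31 ± 0.20 (limma adjusted p = 5.48e-06), so both genes stood highest in STAT3-C cells, opposite to Gpc1. Cd14, the co-receptor that hands lipopolysaccharide to TLR4, rose by 2.12 in each line, and Gpc6 by 2.70 and 2.23, with 0.44 to 2.82 at its other probesets in v-Src cells. Nt5e (CD73), the ectoenzyme that makes adenosine from AMP, rose with v-Src at 1422974_at by 1.97 ± 0.14 (limma adjusted p = 0.00011), while the 0.51 ± 0.09 of STAT3-C was under the fold threshold (limma adjusted p = 0.00305). At 1428547_at, a dimmer probeset in control cells, the rises were 5.38 ± 0.15 with v-Src and 2.88 ± 0.15 with STAT3-C, and 1459023_at was called in neither line.

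Bst2 (tetherin), which holds budding viruses at the membrane, led the GPI-anchored genes that fell. It read 12.21, 12.85 and 12.41 in control, 8.78, 9.38 and 9.57 in v-Src and 9.88, 9.29 and 9.72 in STAT3-C cells. Control lay above both lines, which overlapped, and the fall was -3.25 ± 0.24 (SE; limma adjusted p = 0.000117) with v-Src and -2.86 ± 0.20 (limma adjusted p = 3.48e-05) with STAT3-C. Bst2 is also one of the 15 interferon-stimulated genes counted above. Cd24a, a small heavily glycosylated adhesion protein, read 10.93, 8.83 and 10.09 in control, 7.97, 7.27 and 8.17 in v-Src and 7.86, 8.08 and 6.99 in STAT3-C cells. Its fall of -2.15 ± 0.51 with v-Src (limma adjusted p = 0.0181) was no longer called without v-Src array 1 or 5 or control array 3, with adjusted p between 0.0536 and 0.0685. With STAT3-C Cd24a fell by -2.31 ± 0.50 (limma adjusted p = 0.00921). The Cd24a values are those of 1448182_a_at, and its other probesets are not given here. Gpc4, another glypican, fell to nearly the same level in both lines, by -1.82 ± 0.10 and -1.77 ± 0.11. Gas1, a growth arrest protein and Hedgehog co-receptor, fell by -1.38 ± 0.13 with v-Src (limma adjusted p = 0.000326) at 1416855_at, where the -0.54 ± 0.11 of STAT3-C was under the fold threshold. At 1448494_at Gas1 was called lower in both lines, by -3.00 ± 0.17 (limma adjusted p = 4.63e-05) and -2.27 ± 0.17 (limma adjusted p = 4.35e-05), and at 1456322_at in neither. Rgmb, a co-receptor of bone morphogenetic proteins, fell with STAT3-C by -1.28 ± 0.11 (limma adjusted p = 8.9e-05) at 1428429_at, with -0.42 ± 0.14 in v-Src cells (limma adjusted p = 0.0712), and was lower with STAT3-C at its other probesets too. With v-Src it was called lower at 1433586_at (-1.05; limma adjusted p = 0.00465) and 1433587_at (-1.17; limma adjusted p = 0.00404) and not at the rest.

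**Figure D4:**
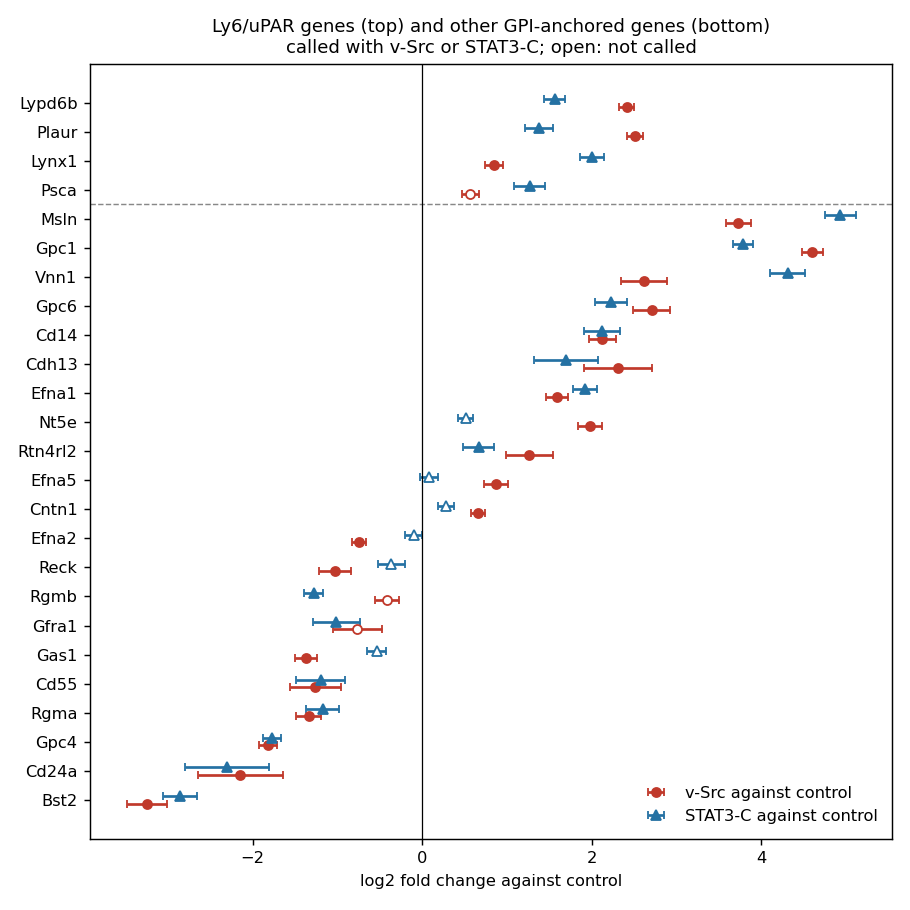
Log2 fold change against control (horizontal axis, with standard errors as bars) of the Ly6/uPAR genes (above the dashed line) and other GPI-anchored genes (below it) that were called in at least 1 comparison with control; circles are v-Src, triangles STAT3-C, and open symbols were not called. Gpc1 and Msln lie farthest to the right with v-Src (4.60 and 3.73) and Bst2 farthest to the left (-3.25).

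The machinery that builds, attaches and trims the anchor was measured at 31 of 32 listed genes. With v-Src 5 were called higher and 2 lower, and the STAT3-C counts were 9 higher and 3 lower, together 22.6% and 38.7% against 19.9% and 22.2% of all genes. Pigh, a subunit of the enzyme complex that makes the first GPI intermediate, read 7.07, 7.05 and 6.85 in control, 4.89, 4.77 and 4.93 in v-Src and 4.55, 4.66 and 4.54 in STAT3-C cells. It fell in both lines, by -2.13 ± 0.09 (SE; limma adjusted p = 1.15e-05) and -2.41 ± 0.10 (limma adjusted p = 2.68e-06), to values below the lower quartile of the arrays. Mppe1, which removes an ethanolamine phosphate from the anchor after attachment, fell by -0.99 ± 0.13 and -1.33 ± 0.13. Pigf and Pigo act in adding ethanolamine phosphate to the anchor. Pigf rose by 0.66 and 1.00, and Pigo at 1438155_x_at by 0.68 and 0.59, in v-Src and STAT3-C cells. At 1415992_at Pigo was called higher with v-Src (0.65) but not with STAT3-C (0.42). At 1437142_a_at it was called in neither line (0.55 and 0.53). Pign, which adds the ethanolamine phosphate to the first mannose, rose with v-Src by 0.94 ± 0.14 (limma adjusted p = 0.00223) at 1421284_at and was called at 2 of its 4 other probesets. Pigx, a subunit of the first mannosyltransferase, Dpm1, which makes the mannose donor, and Pgap1, which removes the acyl chain from inositol, rose with STAT3-C by 1.06, 1.06 and 1.03, and none of these was called with v-Src. Pigo was near the fold threshold: its STAT3-C call was lost after quantile normalization (0.57) or median centring (0.54), without control array 1 (0.48) and without STAT3-C array 3 (0.54), and its v-Src call without control array 1 (0.57). The second probesets of Dpm1 and Pgap1 and of Pigh, all dimmer, were called in neither line.

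Of 14 measured partners of the members, 4 were called higher in v-Src cells, and the STAT3-C counts were 2 higher and 1 lower. Together that was 28.6% and 21.4% of those measured, beside 19.9% and 22.2% of all genes. None was lower with v-Src at an unadjusted p under 0.05 in limma. Sdc4, syndecan-4, a receptor for Thy1 on neighbouring cells, rose by 2.38 ± 0.13 (SE; limma adjusted p = 4.01e-05) and 0.95 ± 0.15 (limma adjusted p = 0.00189) at 1448793_a_at, whereas 1417654_at was not called with v-Src (0.23 ± 0.17; limma adjusted p = 0.368). Tgfb1, the cytokine that Cd109 binds, rose by 1.99 ± 0.10 and 1.24 ± 0.10, and Tgfbr1, its type I receptor, by 2.33 ± 0.15 with v-Src (limma adjusted p = 7.04e-05), with 0.15 ± 0.13 in STAT3-C cells (limma adjusted p = 0.442). At the other Tgfbr1 probesets the v-Src rises were 3.86 ± 0.30 and 3.53 ± 0.30, and the STAT3-C differences of 0.53 (limma adjusted p = 0.00831) and 0.42 (limma adjusted p = 0.24) were not called. The direct test put Tgfbr1 at the first probeset higher in v-Src cells by 2.17 ± 0.17 (limma adjusted p = 0.000543). Cd38, the paralogue of Bst1, and Cd59b had no probeset of that single symbol in the annotation used here.

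Among 9 measured complement regulators other than Cd59a 0 were called higher by limma in either line, with 1 and 2 higher at an unadjusted p under 0.05, and Cd55 and Cr1l, which both restrain the C3 convertases, were called lower in both. The share called was 22.2% in each line, beside 19.9% and 22.2% of all genes for v-Src and STAT3-C. Cd55 was dim, at 4.63, 4.73 and 5.85 in control, 3.83, 3.81 and 3.78 in v-Src and 3.78, 3.91 and 3.92 in STAT3-C cells, with control array 3 apart from the others. Its fall of -1.26 ± 0.30 with v-Src (SE; limma adjusted p = 0.0189) was not called without v-Src array 1, 5 or 6, and that of -1.20 ± 0.29 with STAT3-C (limma adjusted p = 0.0152) was not called without STAT3-C array 1. Cr1l fell by -0.73 ± 0.18 and -0.75 ± 0.16 at 1422563_at, the former not called without v-Src array 1 or 6 or control array 2 or 3, and its other probesets were not called with v-Src.

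Beside Thy1, 14 further surface markers of mesenchymal stromal cells were measured. In v-Src cells 5 were called lower and 1 higher, and in STAT3-C cells 6 lower and 1 higher. Together that was 42.9% and 50% of those measured, beside 19.9% and 22.2% of all genes. When the probesets of each gene were averaged, 3 rather than 5 were lower in v-Src cells. Vcam1, an integrin ligand, fell by -3.28 ± 0.20 (SE; limma adjusted p = 5.77e-05) and -3.16 ± 0.14 (limma adjusted p = 4.51e-06), and by between -1.62 and -1.93 at its other probesets. Pdgfrb, a receptor of platelet-derived growth factor, differed from control by -5.06 ± 0.24 in v-Src and -1.93 ± 0.27 in STAT3-C cells, both called lower, and at that probeset the difference of -3.13 ± 0.34 passed the direct test (limma adjusted p = 0.00138). Pdgfra, Alcam and Itgb1 were also called lower in both lines at the probesets counted here. Cd44, the hyaluronan receptor, was called lower with STAT3-C by -0.82 ± 0.15 (limma adjusted p = 0.00435). Alcam, Itgb1 and Cd44 had other probesets that were not called. Pdgfra was called lower with v-Src at its other probesets too, but with STAT3-C not at 1438946_at (-0.37; limma adjusted p = 0.0955). At the probesets counted, Nt5e rose with v-Src and Eng, endoglin, with STAT3-C, by 0.63 ± 0.09 (limma adjusted p = 0.00153). The Eng call was lost under median centring (0.58) and without STAT3-C array 1 (0.58), and its other probeset was not called.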

How the data were processed

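Total RNA of 9 samples was hybridised to 1 array each. The authors deposited a table of log2 values made from the array scans by RMA; per the methods, RMA was run on control and v-Src arrays together and, separately, on control and STAT3-C arrays, and the sources used here do not say which run the deposited control columns came from. Unless all columns share 1 run, line and normalization run cannot be told apart in the comparison of v-Src with STAT3-C and in one of the comparisons with control. The number of arrays limits the precision. Of 45101 probesets, 64 Affymetrix controls were left out, and 0 sample columns were unused. Of the rest, 34945 had 1 gene symbol in the platform annotation, 932 several and 9160 none. For 34741 of those with 1 symbol, the current symbol was looked up by gene number, whether or not it differed. Gene counts used, for each of 18193 genes, the probeset with the highest mean. Each pair of lines was fitted in limma 3.58.1 (R 4.3.3; lmFit, eBayes) with no covariates and Benjamini-Hochberg adjustment over all 45037 probesets. The study's SAM test was not run, limma taking its place, with its fold threshold of 1.5. The fit was tested on simulated data.

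Members and lists were chosen with earlier results of these data known. Named genes were all members, up to 4 genes called higher and 4 lower per list and comparison with the largest differences, the 5 nearest genes of Bst1, Thy1 and Slurp1, and Cd38, Plaur, Cd59b, Ly6c2, Gpihbp1, Psca, Lypd3 and Nt5e. Them6, Lypd2, Cyp11b2 and other neighbours in the Ly6 cluster, Stat3 and Src, and further genes given without a rank were named after their values were seen. Motifs and promoter sequence came from RefSeq (GRCm38.p6), in whose table Cd59a and Ly6c1 were the members found. Alternatives were quantile normalization, median centring, a joint fit of 9 arrays, trended robust moderation, a filter on dim probesets, a fold of 2, the mean of a gene's probesets, a replicate block, and leaving out each array. Figures were drawn with matplotlib 3.10.9.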

Additional observations from a re-analysis of the deposited data

Results flagged for a closer look

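Direct tests between v-Src and STAT3-C cells (limma, v-Src minus STAT3-C on the log2 scale) showed that 18 genes among the tested members, the Ly6/uPAR family, the other GPI-anchored proteins and the anchor synthesis genes changed by different amounts against control in the lines, Ly6e at 2 probesets. The Ly6/uPAR, other GPI-anchored and anchor synthesis lists had 15.4%, 11.9% and 12.9% of measured genes called, beside 11.7% of all genes. Nothing is read from the count of 18. Among the members, Ly6e was higher in v-Src cells by 0.73 and 0.81 at its probesets, and Cd59a was lower by -0.86 at 1429830_a_at and by -0.38, under the fold threshold, at 1418710_at. In the Ly6/uPAR family Plaur (1.13) and Lypd6b (0.85) were higher in v-Src cells, and Lynx1 (-1.16) and Psca (-0.70) were lower. Of the other GPI-anchored proteins, Nt5e (1.46), Rgmb (0.87), Gpc1 (0.82) and Efna5 (0.79) were higher in v-Src cells, and Vnn1 (-1.69), Msln (-1.20), Gas1 (-0.84) and Efna2 (-0.65) were lower. Vnn1 (-2.14) was called at another probeset, as were Nt5e (2.50) at 1 of its other probesets and Rgmb (0.74 to 0.88) at 3, while the remaining ones of Nt5e (0.05) and Rgmb (0.45 and 0.54) were not. Other probesets of Gas1 (-0.73 and -0.05), Efna2 (-0.01) and Efna5 (0.04) were not called, nor was that of Lynx1 (-0.56). Of the anchor synthesis genes Pign was higher by 1.12, and Pigx (-1.17), Pigp (-0.84) and Dpm1 (-0.64) were lower. Further probesets of Pign were called at 0.82 and 1.07 and not at 0.32 and 0.39, and that of Pigx, at -0.53, was not called. After quantile normalization Dpm1 differed by -0.53 and was not called, and at its other probeset it differed by 0.16.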

How the results depend on the processing

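With a fold of at least 2 in place of 1.5, probesets called higher and lower numbered 1841 and 1669 for v-Src, 1955 and 1758 for STAT3-C, and 725 and 771 between the transfected lines. The same threshold left 0 anchor synthesis genes higher and 1 lower in v-Src cells, and in STAT3-C cells 4 higher. It left 1 member probeset lower with STAT3-C. Between the transfected lines it left 2 member probesets higher and 1 lower, 1 Ly6/uPAR gene higher and 1 lower, 1 other GPI-anchored gene higher and 2 lower, and 1 anchor synthesis gene lower. Leaving out probesets below the median level gave 1 anchor synthesis gene lower with v-Src and 1 Ly6/uPAR gene higher in v-Src cells than in STAT3-C cells. Averaging a gene's probesets gave 2 other GPI-anchored genes lower in v-Src cells than in STAT3-C cells. Leaving out 1 array at a time gave 1 to 2 Ly6/uPAR genes lower in v-Src cells than in STAT3-C cells, Psca being the one lost. Cd109 at 1425658_at, not called, was called with v-Src in the joint fit, after quantile normalization, with trended robust moderation and without dim probesets (adjusted p between 0.0293 and 0.0416), and with STAT3-C in the joint fit and without dim probesets (0.0441 and 0.0479). Control and STAT3-C share replicate numbers, which the main fits did not use as pairs. Deviations of same-numbered arrays correlated at -0.09, 0.06 and 0.04, and not every array correlated best with its own number. With so few arrays per line, these values cannot tell whether the numbers mark paired arrays. With the number as a replicate block, Cd109 was called higher with STAT3-C at 0.68 (limma adjusted p = 0.0111), so that 6 member probesets in place of 5 were higher, and no other call of a gene named from the lists or the Ly6 cluster changed. No alternative run here turned the direction of a called difference. Bst1 in control cells and Cd55 lay near the dim end, where the array limits what can be measured.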
